A study of Mus musculus with 12 samples.

Results

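Messenger RNAs of 38 ribosome biogenesis and RNA polymerase I genes were followed in mouse embryonic fibroblasts that had lost Vps15 or not, in growth medium or without amino acids. The 38 genes were chosen by name, for their known roles, and with earlier results of these data known. All 38 were present among the 32721 genes in the deposited table. They comprise 5 genes of RNA polymerase I transcription, 3 genes of abundant nucleolar proteins, 7 genes of small nucleolar ribonucleoproteins, 12 genes of small subunit assembly and 11 genes of large subunit assembly. All 38 passed the filter on low values, which kept 14279 genes for testing.

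The cells were Vps15f/f fibroblasts, in which both alleles of Pik3r4, the gene of the class 3 PI3K regulatory subunit Vps15, carry sites for Cre. There were 4 groups of 3 libraries. Vps15KO EBSS cells had received adeno-CRE and were then kept for 2 h in EBSS, an amino-acid free salt solution. Vps15KO basal cells had received adeno-CRE and stayed in growth medium. WT EBSS cells had received adeno-GFP and the same 2 h in EBSS, and WT basal cells had received adeno-GFP and stayed in growth medium. Every group therefore carried the floxed alleles and an adenoviral vector, and all were treated 5 days after transduction, after growth to near confluence in high glucose DMEM with fetal bovine serum. The library names read pLEX_GFP and pLEX_CRE, a term the labels do not explain. The labels give neither the excised exons nor the promoter that drives Cre, and they do not say whether replicates were separate cultures, so p-values measure the spread between these samples, which may be technical. Effects of Cre itself cannot be told apart from those of Vps15 loss, nor can loss of amino acids from loss of serum and of part of the glucose in EBSS.

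Ribosomal RNA is transcribed in the nucleolus by RNA polymerase I as a long precursor. The factor UBF (Ubtf) and the TBP-containing complex SL1 mark its promoter, and RRN3, also called TIF-IA, brings the polymerase there. Small nucleolar ribonucleoproteins guide the modification of the precursor, the small subunit processome folds and cuts its first part, and a separate set of factors assembles the large subunit. In mammalian cells the pathway is known to respond to growth signals through mTORC1 and MYC and to slow when amino acids are withdrawn. Poly-A RNA was sequenced here, so the values are mRNA levels and measure neither ribosomal RNA synthesis nor protein.

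The libraries held 21278921 to 21698584 reads in genes. WT basal replicate 2 stood apart from the other WT basal libraries (chi-square per gene 21.4 and 20.5, against 3.17 between the other 2), and WT EBSS replicate 1 less so (8.22 and 11.9, against 3.84), while the Vps15KO groups gave 2.88 to 6.29. The targeted gene, Pik3r4, had 623, 602 and 672 normalized counts in Vps15KO EBSS, against 959, 891 and 834 in WT EBSS, and 633, 699.8 and 640.3 in Vps15KO basal, against 864, 879 and 884 in WT basal. The log2 differences were -0.48 ± 0.07 in EBSS and -0.40 ± 0.07 in basal medium (SE, limma adjusted p = 1.03e-05 and 8.41e-05), and how many cells had recombined cannot be read from counts over the whole gene. Of 10 fibroblast markers 8 were called lower in Vps15KO in each medium, and their summed level was 182598 to 195544 normalized counts in Vps15KO EBSS, 202499 to 211121 in Vps15KO basal, 404457 to 452383 in WT EBSS and 466808 to 490960 in WT basal. Col1a1, Col1a2, Col3a1 and Vim were abundant in every library, and Thy1 was at 0 to 3.18 normalized counts. The 7 immune markers summed to 2680 to 3357 in Vps15KO EBSS, 3014 to 3895 in Vps15KO basal, 856 to 946 in WT EBSS and 960.1 to 997 in WT basal, almost all from Cd68, with Ptprc, Adgre1, Itgam and Cd3e at 0 to 2.00. Epithelial markers summed to at most 35.7, endothelial markers to at most 133 (mostly Vwf), and muscle and adipocyte markers to at most 40.2. The part of these differences in the results below was not tested.

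Most of the 38 mRNAs were more abundant after EBSS than in growth medium, and more abundant in Vps15KO than in WT cells. Their summed share of all reads was 0.544%, 0.535% and 0.535% in the 3 Vps15KO EBSS libraries, 0.450%, 0.460% and 0.439% in Vps15KO basal, 0.422%, 0.397% and 0.410% in WT EBSS, and 0.315%, 0.318% and 0.335% in WT basal. No group overlapped another. Without Npm1 and Ncl, which have the most reads of the 38, the share was 0.284%, 0.273% and 0.282% in Vps15KO EBSS, 0.231%, 0.232% and 0.225% in Vps15KO basal, 0.220%, 0.208% and 0.210% in WT EBSS, and 0.164%, 0.170% and 0.165% in WT basal. The group mean was highest in Vps15KO EBSS for 31 of the 38 genes (81.6%, against 24.3% of all genes tested) and lowest in WT basal for 30 (78.9%, against 28.0%). These are bulk libraries, in which fewer cells of a type and less RNA per cell cannot be told apart.

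**Figure D1:**
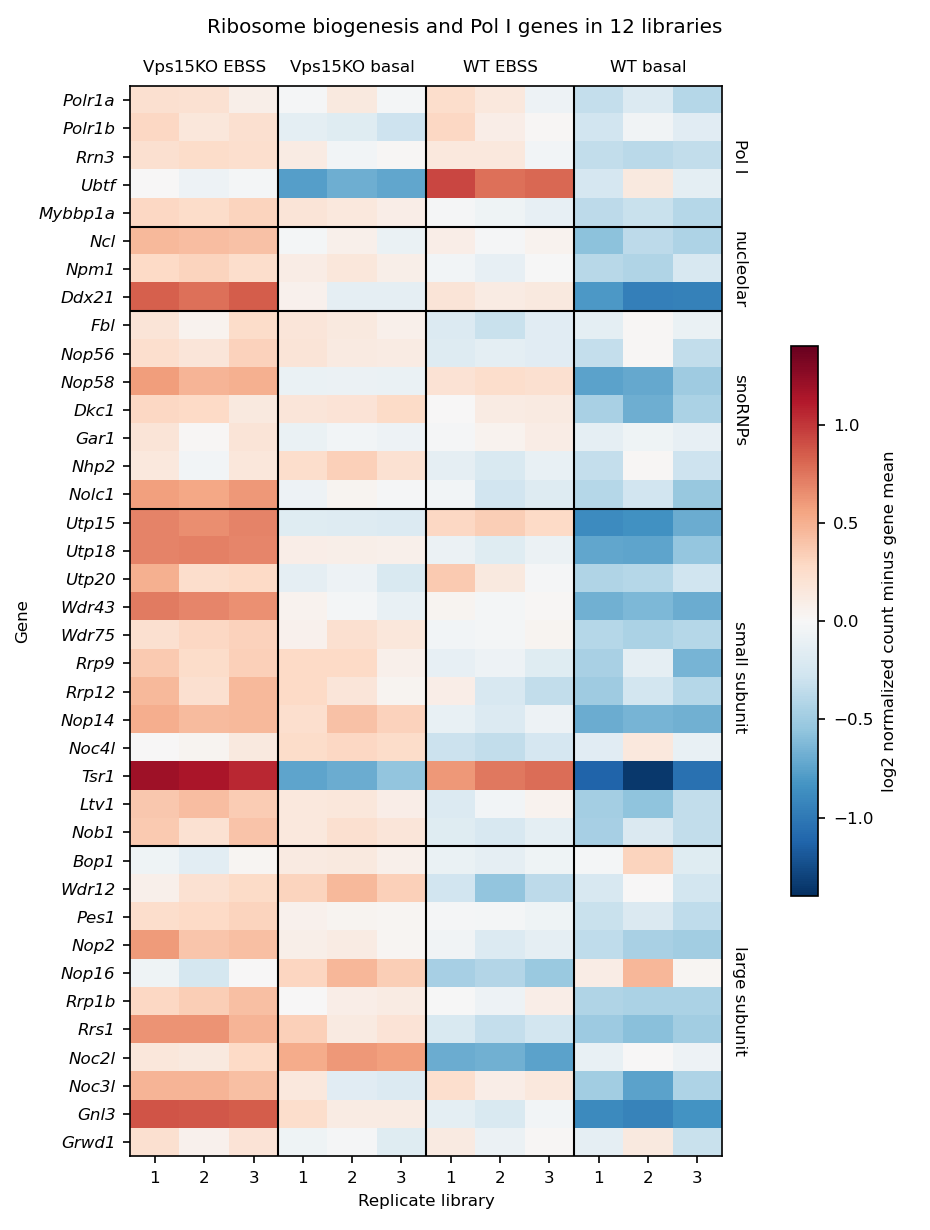
Level of each of the 38 genes (rows, grouped by role) in the 12 libraries (columns, 3 replicates in each of 4 groups), as log2 normalized count minus the mean of that gene over all libraries. Red marks a library above and blue a library below the gene's mean; the Vps15KO EBSS columns are mostly red and the WT basal columns mostly blue, while Ubtf is darkest red in WT EBSS and Noc2l, Nop16 and Noc4l have their highest group mean in Vps15KO basal.

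After EBSS, 22 of the 38 genes were called higher and 3 lower in Vps15KO cells, and 26 higher and 4 lower in WT cells (limma on the deposited log2 values, adjusted p under 0.05). Among all genes tested, 25.9% were called higher and 26.1% lower after EBSS in Vps15KO, and 31.4% higher and 31.3% lower in WT. The median log2 change of the 38 was 0.22 in Vps15KO and 0.30 in WT, beside -0.02 for all genes in either genotype. The libraries of the 2 media did not overlap, with EBSS above, for 25 of the 38 genes in Vps15KO (31.1% of all genes) and for 25 in WT (32.7%). In 20 genes the rise was called in both genotypes and in 3 (Noc2l, Nop16 and Noc4l) the fall. The share of all genes called in both genotypes was not worked out. Without WT basal replicate 2 and WT EBSS replicate 1 the calls were 28 higher and 6 lower in Vps15KO and 29 higher and 3 lower in WT. Of all genes 59.7% were then called in either direction in Vps15KO (52.0% with all libraries) and 58.2% in WT (62.7% with all libraries). The log2 changes in Vps15KO stayed the same, since the omitted WT libraries enter that comparison only through the shared estimate of the spread.

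Between genotypes, 30 of the 38 genes were higher and 1 lower in Vps15KO than in WT in EBSS, and 31 were higher and 1 lower in basal medium. All genes tested gave 29.4% higher and 27.8% lower in EBSS, and 29.3% higher and 29.2% lower in basal medium. The median log2 difference of the 38 was 0.36 in EBSS and 0.47 in basal medium, beside -7.63e-04 and -0.0095 for all genes. Vps15KO libraries lay wholly above WT libraries for 31 of the 38 in EBSS (33.8% of all genes) and for 32 in basal medium (30.5%). In 29 genes the higher level was called in both media, and Ubtf was lower in both. The share of all genes called in both media was not worked out. Without the 2 WT libraries that stood apart the calls were 33 higher and 1 lower in EBSS (60.5% of all genes called in either direction, 57.2% with all libraries) and 34 higher and 1 lower in basal medium (59.3%, and 58.5% with all libraries).

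All 5 genes of RNA polymerase I transcription were called higher after EBSS in WT and 4 in Vps15KO. Between genotypes 2 were higher and 1 lower in EBSS, and 3 higher and 1 lower in basal medium. Rrn3, which bridges the polymerase to its promoter, had 1814, 1854 and 1823 normalized counts in Vps15KO EBSS, 1683, 1511 and 1572 in Vps15KO basal, 1720, 1714 and 1517 in WT EBSS and 1223, 1199 and 1223 in WT basal. The WT basal libraries were below all the others, which ranged from 1511 to 1854. The EBSS change was 0.20 ± 0.06 in Vps15KO (SE, limma adjusted p = 0.0113) and 0.43 ± 0.06 in WT (adjusted p = 9.72e-06). The genotype difference was 0.15 ± 0.06 in EBSS (limma adjusted p = 0.0486) and 0.38 ± 0.06 in basal medium (adjusted p = 4.65e-05). The genotype difference in EBSS was not called with the replicate block (limma adjusted p = 0.0531), with equal library medians (0.11) or with no variance trend. Its call also ended without any 1 Vps15KO EBSS library (0.14 to 0.16) or WT EBSS replicate 3 (0.09), among other omissions. Both this difference and the change in Vps15KO missed the threshold after quantile normalization (0.11 and 0.10). The EBSS change in Vps15KO also missed it without Vps15KO basal replicate 2 (0.17) or with length and GC trends taken out (0.11).

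Ubtf (chr11:102304560-102323649, - strand) was the only gene of the 38 that was called lower in Vps15KO. It had 2797, 2636 and 2732 normalized counts in Vps15KO EBSS, 1624, 1728 and 1675 in Vps15KO basal, 5324, 4738 and 4841 in WT EBSS, and 2359, 3051 and 2520 in WT basal. Vps15KO libraries in EBSS thus reached the level of WT libraries in growth medium, and those in growth medium lay below every WT library. The genotype difference was -0.86 ± 0.08 in EBSS (limma adjusted p = 2.8e-08) and -0.64 ± 0.08 in basal medium (adjusted p = 1.3e-06). It was higher after EBSS in both genotypes, by 0.69 ± 0.08 in Vps15KO and 0.91 ± 0.08 in WT. The difference of these changes, -0.22 ± 0.11 (limma adjusted p = 0.182), was called at -0.28 without WT basal replicate 2 and WT EBSS replicate 1. Mybbp1a, a nucleolar protein that binds Myb and acts in ribosomal RNA transcription and processing, had 7297, 7128 and 7387 counts in Vps15KO EBSS, 6746, 6599 and 6340 in Vps15KO basal, 5872, 5693 and 5497 in WT EBSS and 4635, 4788 and 4517 in WT basal. Its 4 groups did not overlap, and it differed by 0.35 ± 0.05 between genotypes in EBSS and by 0.50 ± 0.05 in basal medium. Its EBSS change was 0.15 ± 0.05 in Vps15KO (limma adjusted p = 0.0293) and 0.29 ± 0.05 in WT. The Vps15KO call ended with quantile normalization (0.11), with no variance trend, or with length and GC trends taken out (0.07). It also ended without Vps15KO EBSS replicate 1 or 3 or Vps15KO basal replicate 2 or 3 (0.12 to 0.15).

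Polr1a and Polr1b encode the catalytic subunits. Polr1a, the largest subunit, had 1736, 1716 and 1574 normalized counts in Vps15KO EBSS, 1461, 1630 and 1460 in Vps15KO basal, 1754, 1646 and 1409 in WT EBSS and 1175, 1294 and 1124 in WT basal. The EBSS change was called in WT (0.41 ± 0.08) and missed the threshold in Vps15KO (0.14 ± 0.08, limma adjusted p = 0.147), where the groups overlapped. The difference of those changes, -0.27 ± 0.11, had a limma adjusted p of 0.111. It was called at -0.26 without the 2 WT libraries that stood apart, at -0.32 without WT basal replicate 2, at -0.36 without WT EBSS replicate 3, and under 2 further alternatives. Polr1b, the second-largest subunit, had 762.1, 697 and 728 in Vps15KO EBSS, 568, 556 and 509.9 in Vps15KO basal, 761.9, 666 and 633 in WT EBSS and 516, 602 and 558 in WT basal. It rose after EBSS by 0.40 ± 0.08 in Vps15KO and 0.28 ± 0.08 in WT, and between genotypes it differed by 0.09 ± 0.08 in EBSS and -0.03 ± 0.08 in basal medium, neither called. Without the 2 WT libraries that stood apart the value in EBSS was 0.16 and called (limma adjusted p = 0.048). The call of its rise in WT ended (limma adjusted p = 0.0634) when the dependence on transcript length and GC content was taken out of each library.

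**Figure D2:**
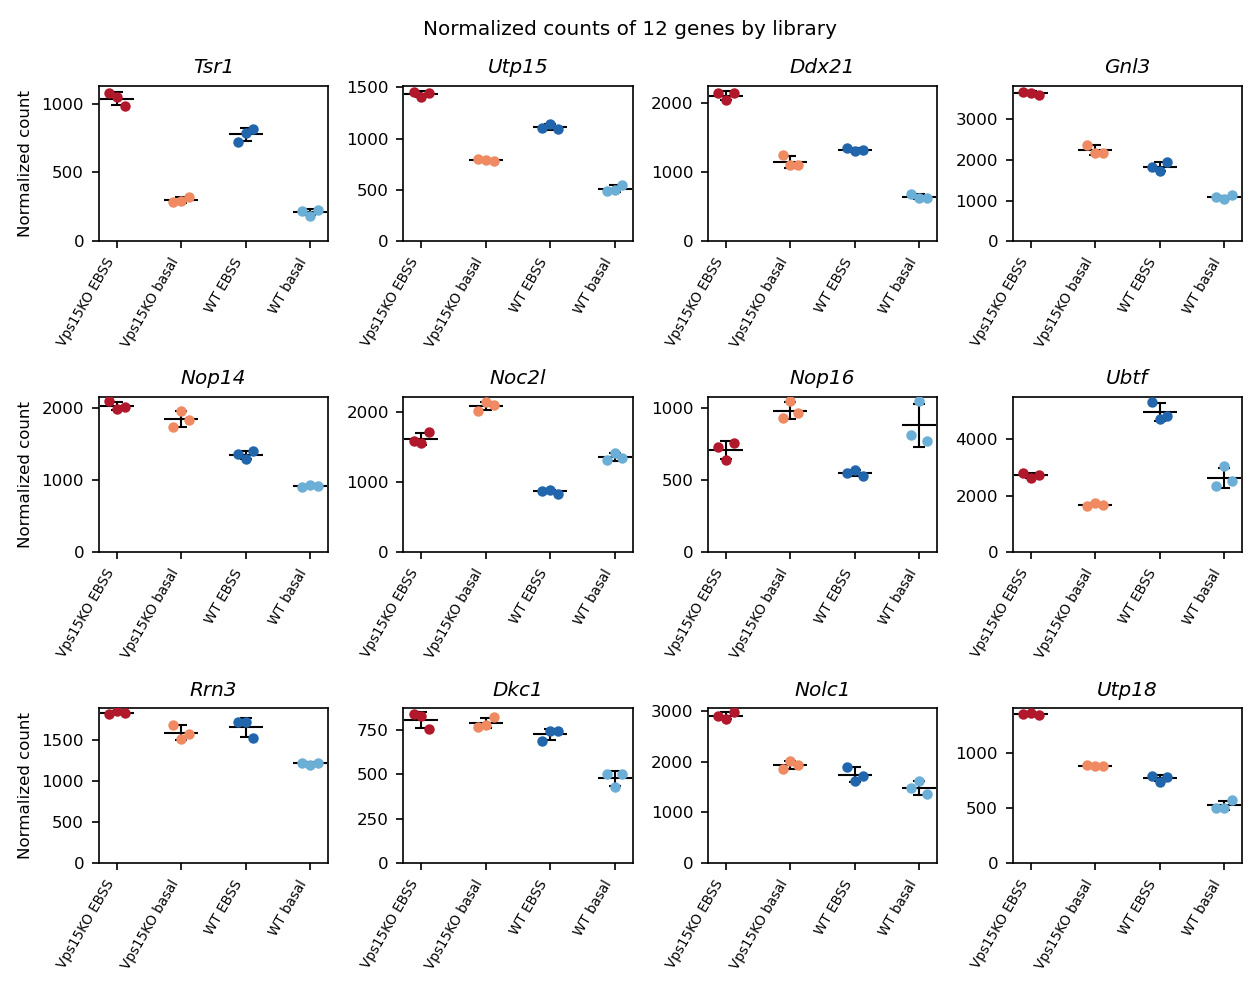
Normalized counts of 12 of the genes in each library (points), with the mean (horizontal line) and SD (whiskers) of the 3 libraries per group; every axis starts at 0. Tsr1 shows 982 to 1075 counts in Vps15KO EBSS against 283 to 323 in Vps15KO basal, Ubtf is lower in Vps15KO than in WT in each medium, and Noc2l and Nop16 are lower in EBSS than in basal medium.

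Rrn3 lies on chromosome 16 (chr16:13780699-13814841, + strand, mm10). Its promoter is shown because it was the only one of the 33 available promoters of these genes with 2 copies of CACGTG, the canonical E-box that MYC with MAX, and also USF and TFE factors, can bind. The 250 bases before the start site (chr16:13780449-13780698, + strand, RefSeq GRCm38.p6) read as follows, with each CACGTG in capitals.
Rrn3 upstream: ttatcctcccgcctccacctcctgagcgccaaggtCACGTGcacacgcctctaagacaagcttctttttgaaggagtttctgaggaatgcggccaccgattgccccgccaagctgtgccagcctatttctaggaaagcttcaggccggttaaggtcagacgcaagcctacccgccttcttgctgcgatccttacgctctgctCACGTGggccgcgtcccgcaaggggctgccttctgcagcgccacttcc

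CACGTG is its own reverse complement, so that both strands were searched at once, from 250 bases before to 50 bases after each start site. It was present in 10 of 33 of the genes with a promoter entry (30.3%), against 1260 of 10879 promoters of all genes tested (11.6%). Bop1, Rrp12, Npm1, Fbl and Rrs1 had no entry. A further 3 motifs were searched on both strands. GGGCGG, bound by SP1, was in 26 of the 33 (78.8%, against 67.0%), CCGGAAGT, an ETS site, in 7 (21.2%, against 8.77%), and TATAAA in 2 (6.06%, against 9.1%). These motifs were chosen with the expression values known, a match is only a run of letters, and no test was made of the shares.

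The 30 bases around each further match are shown to let the flanks be compared, each on the strand of its gene with CACGTG in capitals. By position on mm10 they are Nop2 at chr6:125131811-125131840, Utp18 at chr11:93885769-93885798 and, starting downstream of the start site, Pes1 at chr11:3963965-3963994, Wdr43 at chr17:71616220-71616249, Tsr1 at chr11:74898092-74898121, Ltv1 at chr10:13193092-13193121, Grwd1 at chr7:45830740-45830769, Utp20 at chr10:88826765-88826794 and Mybbp1a at chr11:72441347-72441376.
Nop2, at -60: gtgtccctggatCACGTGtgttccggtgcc
Utp18, at -20: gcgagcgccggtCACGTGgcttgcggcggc
Pes1, at 3: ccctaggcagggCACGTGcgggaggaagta
Wdr43, at 18: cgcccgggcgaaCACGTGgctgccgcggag
Tsr1, at 25: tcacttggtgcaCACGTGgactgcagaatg
Ltv1, at 29: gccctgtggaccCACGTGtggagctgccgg
Grwd1, at 35: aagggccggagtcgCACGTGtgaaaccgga
Utp20, at 38: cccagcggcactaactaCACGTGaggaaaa
Mybbp1a, at 41: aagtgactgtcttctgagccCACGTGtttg
The number after each name is the position of the first capital from the start site of the promoter entry. For Wdr43 and Grwd1 that site lies inside the annotated bounds of the gene. In the 10 genes with a match EBSS was called higher in 10 in Vps15KO and in 9 in WT (median log2 change 0.31 and 0.40), and Vps15KO was called higher in 8 in each medium. In the 23 without a match 11 rose and 3 fell after EBSS in Vps15KO and 15 rose and 4 fell in WT (median 0.14 and 0.40). Vps15KO was higher in 18 and lower in 1 of them in EBSS, and higher in 19 and lower in 1 in basal medium. Among all genes tested 25.9% were called higher and 26.1% lower after EBSS in Vps15KO, and 31.4% and 31.3% in WT. Between genotypes 29.4% of all genes were called higher in Vps15KO in EBSS and 29.3% in basal medium. The genes with and without a match were not tested against each other.

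The 3 mRNAs of abundant nucleolar proteins were higher after EBSS and in Vps15KO, except for 1 comparison in Npm1. Ddx21, an RNA helicase of the nucleolus, had 2133, 2030 and 2138 normalized counts in Vps15KO EBSS, 1245, 1096 and 1096 in Vps15KO basal, 1346, 1295 and 1313 in WT EBSS and 680.4, 616 and 621 in WT basal. No group overlapped another, and Vps15KO libraries in growth medium were somewhat below WT libraries in EBSS. After EBSS Ddx21 was higher by 0.86 ± 0.07 in Vps15KO and 1.01 ± 0.07 in WT, and Vps15KO was higher by 0.66 ± 0.07 in EBSS and 0.81 ± 0.07 in basal medium (limma adjusted p at most 9.35e-08). Ncl, nucleolin, averaged 17040 ± 252 counts in Vps15KO EBSS and 12500 ± 754 in Vps15KO basal, against 13063 ± 501 in WT EBSS and 9237 ± 682 in WT basal (SD, n = 3 each). Npm1, nucleophosmin, a histone and ribosomal protein chaperone, was higher in Vps15KO by 0.33 ± 0.07 in EBSS and 0.46 ± 0.07 in basal medium. Its EBSS change was 0.29 ± 0.07 in WT and 0.16 ± 0.07 in Vps15KO (limma adjusted p = 0.0523), not called there although the groups did not overlap. Npm1 has processed pseudogenes, and how reads shared with them were counted is not stated.

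Among the 7 genes of small nucleolar ribonucleoproteins, 3 rose after EBSS in each genotype and none was called lower, while 5 were higher in Vps15KO in EBSS and 6 in basal medium. The box C/D core proteins moved unequally. Nop58 rose after EBSS by 0.60 ± 0.07 in Vps15KO and 0.86 ± 0.07 in WT. Nop56, its partner in the same particle, changed by 0.10 ± 0.08 and 0.06 ± 0.08, and the methyltransferase Fbl, fibrillarin, by 0.04 ± 0.07 and -0.15 ± 0.07, none of them called. A rise of Nop56 in WT was called without WT basal replicate 2 (0.18) or with library weights (0.17). It was also called without WT basal replicate 2 and WT EBSS replicate 1 (0.19). In Vps15KO a rise of Nop56 was called with length and GC trends taken out (0.16). Once length and GC trends were taken out, Fbl was called higher after EBSS in both genotypes, by 0.27 in Vps15KO and 0.16 in WT, where its sign thus turned. A fall of Fbl in WT was called with quantile normalization (-0.22), with library weights (-0.14) or without WT basal replicate 1 (-0.18). Between genotypes Nop56 was higher in Vps15KO by 0.39 ± 0.08 in EBSS and 0.36 ± 0.08 in basal medium. Nop58 was higher by 0.29 ± 0.07 and 0.55 ± 0.07, and Fbl by 0.38 ± 0.07 and 0.19 ± 0.07. The Fbl call in basal medium ended without Vps15KO basal replicate 1 or 2 or WT basal replicate 1 or 3 (0.16 to 0.19).

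The box H/ACA particle, which converts uridine to pseudouridine, is represented by Dkc1, its enzyme dyskerin, and by Gar1 and Nhp2. Dkc1 had 836, 828 and 753 normalized counts in Vps15KO EBSS, 768, 778 and 821 in Vps15KO basal, 688, 743 and 744 in WT EBSS and 500.0, 427 and 504 in WT basal. The WT basal libraries alone were low. The EBSS change was 0.03 ± 0.07 in Vps15KO and 0.58 ± 0.07 in WT, and the genotype difference 0.15 ± 0.07 in EBSS and 0.70 ± 0.07 in basal medium, with only the WT and basal values called. Dkc1 overlaps Mpp1 on the opposite strand, which averaged 3571 normalized counts over all libraries, against 699.0 for Dkc1. Mpp1 differed between genotypes by 0.86 in EBSS and 0.73 in basal medium. The EBSS change of Mpp1 was -0.18 in Vps15KO and -0.30 in WT. Whether reads were counted by strand is not given, and the part of Mpp1 in the Dkc1 values was not tested. Nop56 and Bop1, among others, also overlap genes on the opposite strand. Nhp2 was higher in Vps15KO in EBSS (0.23 ± 0.08) and in basal medium (0.45 ± 0.08), with no EBSS change called with all libraries. Its call in EBSS ended with quantile normalization (0.18), equal library medians (0.19) or without Vps15KO EBSS replicate 1 or 3 or WT EBSS replicate 2 (0.19 to 0.20). A fall of Nhp2 after EBSS in Vps15KO was called with quantile normalization (-0.24) or library weights (-0.20). A rise in WT was called without WT basal replicate 2 (0.16) or with length and GC trends taken out (0.30). Gar1 rose by 0.19 ± 0.06 after EBSS in Vps15KO (limma adjusted p = 0.0176) and had no call between genotypes (0.08 ± 0.06 in EBSS, 0.03 ± 0.06 in basal medium). Its call after EBSS in Vps15KO ended without Vps15KO EBSS replicate 1 or 3 or Vps15KO basal replicate 1 (0.16 to 0.18). The Gar1 change in WT was not called, but a rise was with library weights (0.16) or length and GC trends taken out (0.45). That rise was also called without WT basal replicate 2 (0.16), or without that library and WT EBSS replicate 1 (0.19). Nolc1, or Nopp140, which carries these particles to the nucleolus, had 2893, 2846 and 2976 counts in Vps15KO EBSS, 1855, 2006 and 1934 in Vps15KO basal, 1900, 1614 and 1715 in WT EBSS and 1475, 1622 and 1354 in WT basal. Its Vps15KO EBSS libraries stood well above all the others. It rose after EBSS by 0.58 ± 0.07 in Vps15KO and by 0.23 ± 0.07 in WT, where the groups overlapped. The WT call ended with length and GC trends taken out (0.15), with quantile normalization (0.14), or without WT EBSS replicate 1 or WT basal replicate 3 (0.17).

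Among the small subunit genes, 6 rose and 1 fell after EBSS in Vps15KO and 9 rose and 1 fell in WT, and 11 of the 12 were higher in Vps15KO in each medium. Tsr1 had the largest EBSS change of the 38 in both genotypes. This factor of late small subunit maturation, related to GTPases, had 1075, 1048 and 982 normalized counts in Vps15KO EBSS, 283, 293 and 323 in Vps15KO basal, 724, 788 and 815 in WT EBSS and 219, 185 and 229.9 in WT basal. The 2 EBSS groups lay far above the 2 basal groups. After EBSS Tsr1 was higher by 1.70 ± 0.08 in Vps15KO (limma adjusted p = 1.1e-11) and 1.75 ± 0.08 in WT (adjusted p = 6.73e-12), and Vps15KO was higher by 0.40 ± 0.08 in EBSS and 0.46 ± 0.08 in basal medium. Tsr1 (chr11:74898080-74909340, + strand) overlaps Srr on the opposite strand, and whether reads were counted by strand is not given in the sources used here. Srr changed by -0.04 after EBSS in Vps15KO and by 0.10 in WT. Utp15, a subunit of the early complex that binds the nascent precursor, had 1454, 1405 and 1448 counts in Vps15KO EBSS, 799, 793 and 784 in Vps15KO basal, 1099, 1142 and 1089 in WT EBSS and 486, 499.6 and 552 in WT basal. All 4 groups were separate, and it rose after EBSS by 0.84 ± 0.06 in Vps15KO and 1.08 ± 0.06 in WT.

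Other early factors of the small subunit were also higher in Vps15KO. Utp18, from a second subcomplex of the processome, had 1353, 1363 and 1342 normalized counts in Vps15KO EBSS, 887, 883 and 878 in Vps15KO basal, 789, 739.8 and 785 in WT EBSS and 502, 499.6 and 572 in WT basal. Each group was separate, and the genotype difference was 0.79 ± 0.06 in EBSS and 0.72 ± 0.06 in basal medium. Wdr43, which works beside Utp15, rose by 0.70 ± 0.06 in Vps15KO and 0.66 ± 0.06 in WT, with genotype differences of 0.66 ± 0.06 in EBSS and 0.63 ± 0.06 in basal medium. Wdr75, from the same complex, had 1523, 1601 and 1637 counts in Vps15KO EBSS, 1367, 1523 and 1461 in Vps15KO basal, 1275, 1284 and 1342 in WT EBSS and 991, 964 and 989 in WT basal. The WT basal libraries were the lowest. The EBSS change was 0.13 ± 0.06 in Vps15KO (limma adjusted p = 0.0805) and 0.40 ± 0.06 in WT. Utp20, a scaffold protein, rose after EBSS by 0.46 ± 0.09 in Vps15KO and 0.50 ± 0.09 in WT, and was one of 5 genes with no call between genotypes. The others were Polr1b, Gar1, Bop1 and Grwd1. Without the 2 WT libraries that stood apart, Utp20 was called higher in Vps15KO in EBSS (0.26) and in basal medium (0.19), Polr1b (0.16) and Grwd1 (0.18) in EBSS, and Bop1 in basal medium (0.21).

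Nop14 and Noc4l, whose yeast counterparts bind each other in the processome, differed in their EBSS changes. Nop14 had 2091, 1986 and 2008 normalized counts in Vps15KO EBSS, 1731, 1954 and 1838 in Vps15KO basal, 1361, 1285 and 1395 in WT EBSS and 908, 931 and 919.7 in WT basal. All groups were separate, with the EBSS change at 0.14 ± 0.06 in Vps15KO (limma adjusted p = 0.0613) and 0.54 ± 0.06 in WT, and the genotype difference at 0.58 ± 0.06 in EBSS and 0.98 ± 0.06 in basal medium. Noc4l had 791, 812 and 870.2 counts in Vps15KO EBSS, 944, 963 and 944 in Vps15KO basal, 639, 622 and 671 in WT EBSS and 706, 873 and 735 in WT basal. It was the small subunit gene that fell after EBSS, with changes of -0.20 ± 0.08 in Vps15KO (limma adjusted p = 0.0322) and -0.25 ± 0.08 in WT (adjusted p = 0.00847), and it was higher in Vps15KO in both media. The Vps15KO call ended without Vps15KO EBSS replicate 1 or 2, or without any 1 Vps15KO basal library (limma adjusted p 0.0616 to 0.115). With no filter on low values it ended as well (limma adjusted p = 0.0861). The WT call ended without WT basal replicate 2 and WT EBSS replicate 1 (-0.15, limma adjusted p = 0.0629). Taking out length and GC trends ended both calls (limma adjusted p = 0.154 in Vps15KO and 0.408 in WT).

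The remaining 4 small subunit genes were all higher in Vps15KO in both media. Ltv1 and Nob1, a late assembly factor and the nuclease that makes the mature end of the small subunit RNA, differed by 0.42 ± 0.08 and 0.49 ± 0.07 in EBSS and by 0.56 ± 0.08 and 0.51 ± 0.07 in basal medium. Rrp9, of the U3 particle, and Rrp12, an export factor, differed by 0.42 ± 0.10 and 0.50 ± 0.10 in EBSS and by 0.59 ± 0.10 and 0.50 ± 0.10 in basal medium. After EBSS, Ltv1 rose in both genotypes and Rrp9 in WT (0.27 ± 0.10), where the call ended without WT EBSS replicate 2 (0.25), WT basal replicate 1 (0.25) or WT basal replicate 3 (0.16). Nob1 and Rrp12 were called in neither genotype with all libraries (0.14 ± 0.07 and 0.20 ± 0.10 in Vps15KO, 0.16 ± 0.07 and 0.21 ± 0.10 in WT). Without WT basal replicate 2 both were called higher in WT (0.22 and 0.27). Without that library and WT EBSS replicate 1 both were called in Vps15KO, where the log2 changes stayed the same.

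**Figure D3:**
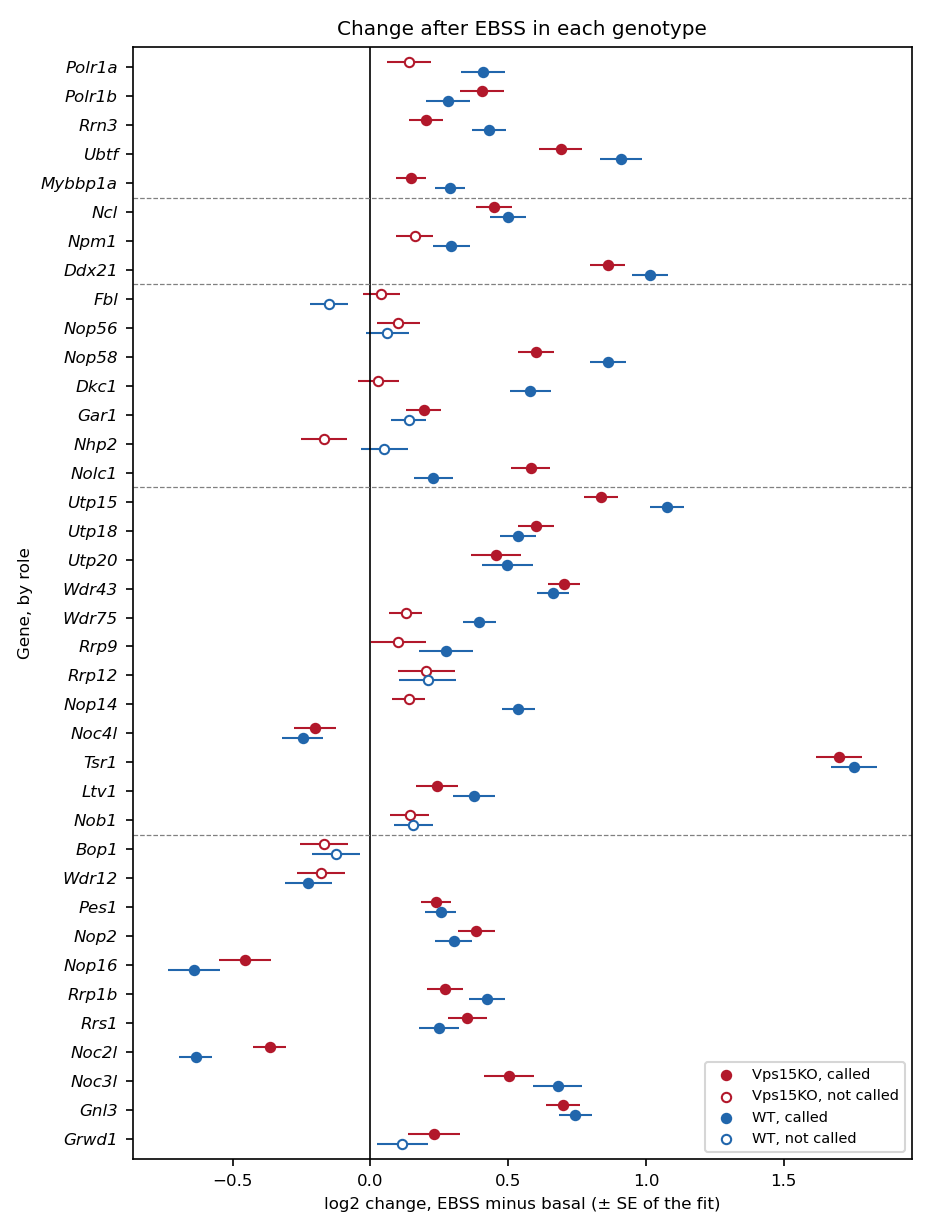
Log2 change of each of the 38 genes after EBSS (EBSS minus basal) in Vps15KO (red) and WT (blue) cells, with the standard error of the limma fit; filled points were called at adjusted p under 0.05. Tsr1 stands apart at 1.70 and 1.75, and most other genes lie between 0 and 1.1. Noc2l, Nop16, Noc4l, Wdr12 and Bop1 lie below 0 in both genotypes, and of these Noc2l, Nop16 and Noc4l were called in both.

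Large subunit assembly was the most divided role after EBSS, with 7 genes higher and 2 lower in Vps15KO, and 6 higher and 3 lower in WT. Between genotypes none of the 11 was called lower, and 9 were higher in EBSS and 8 in basal medium. Gnl3 (chr14:31012433-31019131, - strand), the GTPase nucleostemin, had 3683, 3655 and 3606 normalized counts in Vps15KO EBSS, 2374, 2179 and 2165 in Vps15KO basal, 1826, 1730 and 1951 in WT EBSS and 1078, 1049 and 1124 in WT basal. Every Vps15KO library was above every WT library. The genotype difference was 0.98 ± 0.06 in EBSS (limma adjusted p = 1.89e-10) and 1.03 ± 0.06 in basal medium (adjusted p = 1.24e-10), and Gnl3 rose after EBSS by 0.70 ± 0.06 in Vps15KO and 0.74 ± 0.06 in WT. Its opposite-strand neighbour Pbrm1 differed by -0.25 and 0.10 between genotypes, and changed after EBSS by 0.31 in Vps15KO and 0.66 in WT.

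Noc2l and Nop16 were lower after EBSS, unlike most of the list. Noc2l, a large subunit factor that is also known as an inhibitor of histone acetyltransferases, had 1580, 1554 and 1714 normalized counts in Vps15KO EBSS, 2022, 2143 and 2099 in Vps15KO basal, 875, 888 and 837 in WT EBSS and 1314, 1421 and 1347 in WT basal. Both Vps15KO groups lay above both WT groups. It changed after EBSS by -0.36 ± 0.06 in Vps15KO (limma adjusted p = 6.37e-05) and -0.63 ± 0.06 in WT (adjusted p = 5.51e-08), and the genotype difference was 0.88 ± 0.06 in EBSS and 0.61 ± 0.06 in basal medium. Nop16, a nucleolar protein of large subunit precursors, had 727, 638 and 758 counts in Vps15KO EBSS, 929.6, 1046 and 963 in Vps15KO basal, 549, 568 and 527 in WT EBSS and 813, 1047 and 769 in WT basal. Its EBSS change was -0.46 ± 0.09 in Vps15KO and -0.64 ± 0.09 in WT. The value of WT basal replicate 2 was high for this gene, and the genotype difference in basal medium, 0.17 ± 0.09 (limma adjusted p = 0.141), was called at 0.30 without the 2 libraries that stood apart.

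The 3 subunits of the PeBoW complex, which is needed to process the large subunit RNAs, did not change as one. Pes1 rose after EBSS by 0.24 ± 0.06 in Vps15KO and 0.25 ± 0.06 in WT and was higher in Vps15KO by 0.31 ± 0.06 in EBSS and 0.33 ± 0.06 in basal medium. Wdr12 was lower after EBSS in WT (-0.22 ± 0.09, limma adjusted p = 0.0301), at -0.18 ± 0.09 in Vps15KO (adjusted p = 0.0895), and higher in Vps15KO by 0.55 ± 0.09 and 0.51 ± 0.09. Its EBSS call in WT ended without WT EBSS replicate 2 (-0.15) or WT basal replicate 2 (-0.14), and the value in Vps15KO was called under 6 alternatives. With all libraries Bop1 was called in none of the 4 comparisons, with changes of -0.17 ± 0.09 and -0.12 ± 0.09 after EBSS and genotype differences of 0.03 ± 0.09 and 0.07 ± 0.09. Without WT basal replicate 2 it was called lower after EBSS in Vps15KO, at an unchanged -0.17, and higher in Vps15KO in basal medium (0.21). Without WT basal replicate 3 it was called lower after EBSS in WT (-0.23). Rrs1, which in yeast acts early in large subunit assembly, rose after EBSS by 0.35 ± 0.07 in Vps15KO and 0.25 ± 0.07 in WT, and differed between genotypes by 0.81 ± 0.07 in EBSS and 0.71 ± 0.07 in basal medium. Nop2, an RNA methyltransferase, Rrp1b and Noc3l rose along both axes, by 0.27 to 0.50 after EBSS in Vps15KO, 0.30 to 0.68 after EBSS in WT, and 0.29 to 0.58 and 0.47 to 0.49 between genotypes in EBSS and basal medium. Grwd1, a histone-binding assembly factor, was called with all libraries only after EBSS in Vps15KO (0.23 ± 0.09, limma adjusted p = 0.0455). That call ended under 12 alternatives, among them leaving out any 1 Vps15KO basal library (0.19 to 0.26), and a rise in WT was called without WT basal replicate 2 (0.23).

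**Figure D4:**
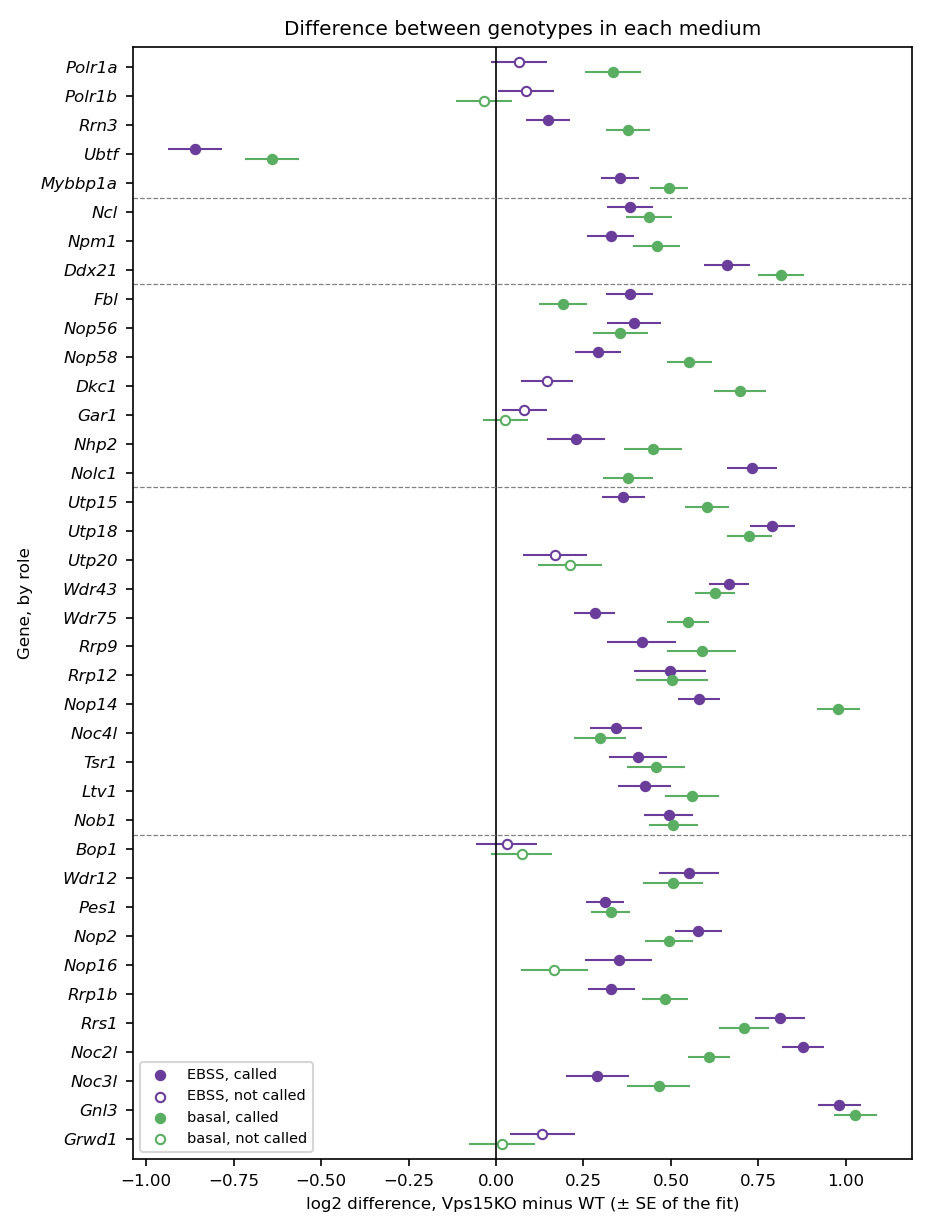
Log2 difference between genotypes (Vps15KO minus WT) of each of the 38 genes in EBSS (purple) and in basal medium (green), with the standard error of the limma fit; filled points were called at adjusted p under 0.05. Ubtf alone lies clearly below 0, at -0.86 in EBSS and -0.64 in basal medium, and Gnl3 lies furthest above, at 0.98 and 1.03.

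The EBSS change itself differed between genotypes for 5 of the 38 genes, 2 with a larger value in Vps15KO and 3 with a larger value in WT. Among all genes tested 9.55% and 8.24% were called in these directions, and 17.8% in either. The median difference of the 38, Vps15KO minus WT, was -0.04. Dkc1 rose less in Vps15KO, by a difference of -0.55 ± 0.11 (limma adjusted p = 0.00137), as did Nop14 (-0.40 ± 0.09, adjusted p = 0.00344). Those 2 calls held when any 1 library was left out. The other 3 did not hold under every such omission. Nolc1 rose more in Vps15KO (0.35 ± 0.10, limma adjusted p = 0.021), Noc2l fell less (0.27 ± 0.09, adjusted p = 0.036) and Wdr75 rose less (-0.27 ± 0.08, adjusted p = 0.0347), and leaving out 1 library ended the call in 3, 8 and 6 of 12 cases. Without WT basal replicate 2 and WT EBSS replicate 1, 2 genes were called higher and 7 lower, with 22.1% of all genes called. In 7 genes an EBSS call was reached in WT and not in Vps15KO, and in 2 the reverse, which by itself does not show a difference between the genotypes.

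Of the 38 genes, 7 hold small nucleolar RNAs within their bounds and on their strand in the GENCODE annotation: Ncl, Nop56, Nop58, Dkc1, Wdr43, Tsr1 and Gnl3. After EBSS 5 of these were called higher in Vps15KO and 6 in WT, and between genotypes 6 in EBSS and 7 in basal medium, with none lower. Their median log2 values were 0.60, 0.66, 0.39 and 0.55 in that order, beside 0.20, 0.28, 0.35 and 0.47 for the 31 genes without one. All 212 host genes tested had medians of 0.05, 0.06, 0.01 and 0.03. In the same order 34.9%, 40.6%, 31.6% and 34.0% of these hosts were called higher and 25.5%, 29.7%, 18.9% and 17.9% lower. Of all genes tested 25.9%, 31.4%, 29.4% and 29.3% were called higher and 26.1%, 31.3%, 27.8% and 29.2% lower.

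The wider pathway was followed in 109 further genes of RNA polymerase I and of ribosome assembly. Of these, 52 were higher and 18 lower after EBSS in Vps15KO, 50 and 26 in WT, and in Vps15KO relative to WT 62 were higher and 8 lower in EBSS and 54 and 11 in basal medium. Their median log2 values were 0.14, 0.13, 0.23 and 0.17. The 40 other small subunit factors gave 26 higher and 0 lower in Vps15KO in EBSS and 26 and 1 in basal medium, and after EBSS 23 higher and 7 lower in Vps15KO and 23 and 8 in WT. Imp4, of the U3 particle, rose after EBSS by 0.92 ± 0.08 in Vps15KO and 0.83 ± 0.08 in WT and did not differ beyond the spread between genotypes (0.07 in EBSS and -0.02 in basal medium), whereas Mphosph10, of the same particle, was higher in Vps15KO by 0.74 ± 0.09 in EBSS and 0.86 ± 0.09 in basal medium. Pno1 and Dcaf13 were called higher in all of these comparisons, with genotype differences of 0.48 and 0.54 in EBSS and 0.76 and 0.62 in basal medium.

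Of 40 other large subunit factors, 21 were higher and 4 lower after EBSS in Vps15KO and 19 and 7 in WT, and 24 were higher and 2 lower in Vps15KO in EBSS and 19 and 3 in basal medium. Sdad1 averaged 1615 ± 72.8 normalized counts in Vps15KO EBSS and 752 ± 80.8 in Vps15KO basal, against 877 ± 17.8 in WT EBSS and 506 ± 23.1 in WT basal (SD, n = 3 each). Nmd3, the adaptor that exports the large subunit, was higher in Vps15KO by 1.01 ± 0.07 in EBSS and 0.53 ± 0.07 in basal medium. Gtpbp4, a nucleolar GTPase, was higher by 0.89 ± 0.06 and 0.86 ± 0.06. The 12 other small nucleolar ribonucleoprotein genes gave calls in both directions, with 3 higher and 4 lower after EBSS in Vps15KO, 2 and 6 in WT, and 4 and 2 between genotypes in each medium. There the assembly factor Naf1 was higher in Vps15KO (0.79 ± 0.09 in EBSS, 0.63 ± 0.09 in basal medium). Tgs1, a methyltransferase that acts on RNA caps, rose after EBSS by 0.77 ± 0.08 in Vps15KO and 0.73 ± 0.08 in WT. The core protein Nop10 and the assembly factor Pih1d1 were lower in Vps15KO in both media. For Nop10 the log2 differences were -0.45 ± 0.09 in EBSS and -0.51 ± 0.09 in basal medium.

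The 17 other RNA polymerase I genes gave no common direction. After EBSS 5 were higher and 3 lower in Vps15KO and 6 and 5 in WT, and between genotypes 8 were higher and 4 lower in EBSS and 5 and 5 in basal medium. Taf1a and Taf1c encode subunits of SL1. Taf1c rose after EBSS by 0.85 ± 0.10 in Vps15KO and 0.60 ± 0.10 in WT and was lower in Vps15KO in both media (-0.25 ± 0.10 and -0.50 ± 0.10). Taf1a rose by 0.92 ± 0.10 in Vps15KO and was at 0.17 ± 0.10 in WT, with a difference of 0.75 ± 0.14 between genotypes (limma adjusted p = 0.00137). Cd3eap, a polymerase-associated subunit, rose by 0.74 ± 0.12 and 0.59 ± 0.12, and Polr1c, shared with RNA polymerase III, was higher in Vps15KO by 0.35 ± 0.08 in EBSS and 0.40 ± 0.08 in basal medium without a call after EBSS. Of 19 RNA polymerase III genes, 9 rose and 3 fell after EBSS in Vps15KO and 10 and 5 in WT, with 6 higher and 4 lower between genotypes in EBSS and 4 and 7 in basal medium; Brf1, its initiation factor, was lower in Vps15KO in both media (-0.47 ± 0.06 and -0.42 ± 0.06). Of 15 exosome and decay genes 4 rose and 7 fell after EBSS in Vps15KO and 5 and 3 in WT. Between genotypes 7 were higher and 1 lower in EBSS and 8 and 3 in basal medium, Dis3 by 0.32 ± 0.07 and 0.53 ± 0.07.

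**Figure D5:**
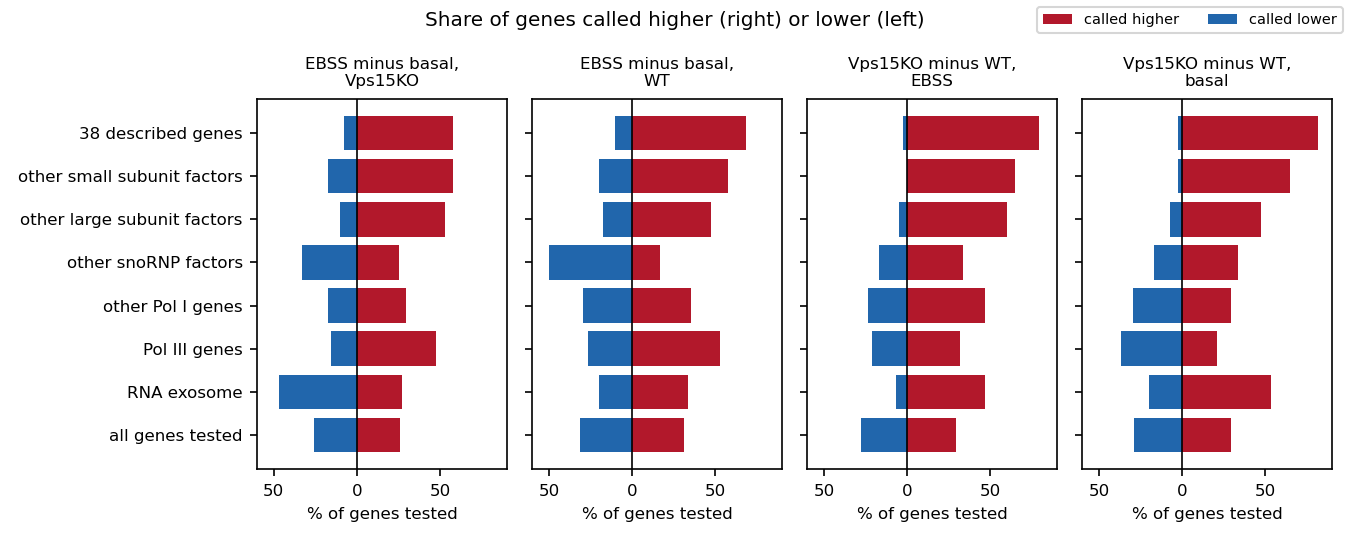
Percent of genes called higher (red, right of 0) or lower (blue, left of 0) in each of 4 comparisons, for the 38 described genes, 6 further lists and all 14279 genes tested. The 38 genes are called higher in Vps15KO at 78.9% in EBSS and 81.6% in basal medium, beside 29.4% and 29.3% of all genes, and the bars of the other snoRNP and RNA polymerase I lists extend to both sides.

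Myc, the transcription factor best known for driving ribosome biogenesis genes, had 3404, 3075 and 3555 normalized counts in Vps15KO EBSS, 2482, 2670 and 2697 in Vps15KO basal, 1105, 1019 and 1180 in WT EBSS and 1083, 1165 and 1124 in WT basal. All Vps15KO libraries were above all WT libraries, and the 2 WT groups overlapped. The genotype difference was 1.58 ± 0.07 in EBSS (limma adjusted p = 2.15e-12) and 1.20 ± 0.07 in basal medium (adjusted p = 8.51e-11). After EBSS Myc rose by 0.35 ± 0.07 in Vps15KO and was at -0.03 ± 0.07 in WT (limma adjusted p = 0.711), and the difference of the changes was 0.38 ± 0.10 (adjusted p = 0.0111). Once length and GC trends were taken out, a rise in WT was called, at 0.29. Of the 11 MYC network genes tested, 6 rose and 2 fell after EBSS in Vps15KO and 6 and 1 in WT. Max, its partner, averaged 2940 ± 124 counts in Vps15KO EBSS and 1459 ± 30.9 in Vps15KO basal, against 3037 ± 75.9 in WT EBSS and 1391 ± 96.4 in WT basal. Mnt, which competes with MYC for MAX, averaged 4094 ± 88.8, 1762 ± 49.8, 3230 ± 279.5 and 1078 ± 80.3 in the same 4 groups. Of 8 genes of the p53 response to nucleolar stress, 4 rose and 4 fell after EBSS in Vps15KO, 3 rose and 5 fell in WT, and 5 were higher and 0 lower in Vps15KO in EBSS and 4 and 1 in basal medium, among them the p53 targets Cdkn1a (0.72 ± 0.07 and 1.02 ± 0.07) and Mdm2 (0.46 ± 0.07 and 0.22 ± 0.07).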

How the data were processed

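Poly-A RNA from 12 libraries was sequenced on a DNBSEQ-G400 with dUTP strand marking, per the labels' protocols. The deposited table holds 32721 genes as log2-scale values that the authors made with a variance-stabilizing transform, a reading taken from the values themselves. According to the submitters' processing notes, mm10 was the build and limma, DESeq2, featureCounts and STAR 2.7.10b were used, with no role given for each. Inverting the transform gave whole reads (100.0% within 0.001 of a whole number) and size factors of 0.945 to 1.02. The normalized counts printed are these reads divided by the size factors, from 21278921 to 21698584 reads per library.

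The deposited values were fitted with limma 3.58.1 in R 4.3.3, 1 mean per group over all 12 libraries, with a variance trend (8 residual and 10.2 prior degrees of freedom). Genes whose mean was at least 1 above the lowest value of the table were tested (14279), with two-sided p-values adjusted by Benjamini and Hochberg within each comparison and a call at adjusted p under 0.05. Values after ± are standard errors of log2 values, or SDs of normalized counts with n = 3. The fit was tested on simulated data. Tables and figures used Python 3.11.15, pandas 2.3.3, numpy 2.4.6 and matplotlib 3.10.9.

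The 38 genes and all other lists were chosen with earlier results of these data known. Values per library are given for Rrn3, Polr1a, Polr1b, Ubtf, Mybbp1a and the 3 genes of the 38 with the smallest p in each direction of each comparison; of other lists at most 3 genes with the smallest p in a comparison are named. Mycn was not analysed here. Promoter sequences came from RefSeq (GRCm38.p6) and transcript length and GC content from GENCODE. Alternatives were the replicate number as a block, other normalizations, filters, variance models, scales and thresholds, voom on the recovered reads, removal of length and GC trends, and leaving out libraries.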

Additional observations from a re-analysis of the deposited data

Results flagged for a closer look

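The EBSS change differed between genotypes, by the limma interaction term, for 5 of the 38 genes and for 2 other named genes. The values are log2 changes in Vps15KO minus those in WT. Dkc1 was at -0.55 and Nop14 at -0.40, and both calls held without any 1 of the 12 libraries (limma adjusted p 4.18e-04 to 0.0063 and 6.44e-04 to 0.0138). Nolc1 was at 0.35, and the call ended without Vps15KO EBSS replicate 3, Vps15KO basal replicate 1 or WT EBSS replicate 2 (limma adjusted p up to 0.0706). Wdr75 was at -0.27, and the call ended without Vps15KO EBSS replicate 1 or 2, Vps15KO basal replicate 2 or 3, or WT EBSS replicate 2 or 3 (up to 0.0967). Noc2l was at 0.27, and the call ended without Vps15KO EBSS replicate 1 or 3 or any 1 library of Vps15KO basal or WT EBSS (up to 0.103). Outside the 38, Myc was at 0.38 and Taf1a at 0.75, and both calls held without any 1 library. The Myc call ended with no filter on low values (limma adjusted p = 0.0596). Taking out length and GC trends ended the calls of Wdr75 (-0.20) and Noc2l (0.20). Among all genes tested 17.8% were called in this comparison, and the part of the WT libraries that stood apart is given by the counts without them.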

How the results depend on the processing

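Between genotypes, the counts called higher ranged over 27 to 33 in EBSS and 30 to 34 in basal medium under the alternatives, and 28 to 31 and 30 to 33 with 1 library left out; Ubtf alone was called lower in each. After EBSS, 17 to 28 were higher in Vps15KO and 25 to 30 in WT (19 to 26 and 24 to 32 with 1 library left out), and 3 to 5 were lower in WT under either kind. The 3 called lower in Vps15KO became 6 with quantile normalization, library weights, only the groups compared, or without WT basal replicate 2 and WT EBSS replicate 1, and 2 to 6 with 1 library left out (6 without WT basal replicate 2). In the difference between genotypes, the 2 higher became 1 with quantile normalization, no filter, or length and GC trends taken out, and 0 with no variance trend or adjusted p under 0.01 (0 to 2 with 1 library left out). The 3 lower became 10 with library weights and 7 without both libraries (2 to 7 with 1 left out, 7 without WT basal replicate 2 and 5 without WT basal replicate 3). Taking out length and GC trends turned the sign of the EBSS change in WT for Fbl (0.16), Myc (0.29), Gtpbp4 (-0.038), Nmd3 (-0.25) and Pih1d1 (0.043). The same setting ended the calls of Polr1b, Ncl, Nolc1 and Noc4l after EBSS in WT, of Rrn3, Mybbp1a, Ncl and Noc4l after EBSS in Vps15KO, of Rrn3 between genotypes in EBSS, and of Wdr75 and Noc2l in the difference between genotypes. The cause was not tested.

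Same-numbered libraries did not deviate together within a genotype (correlation of deviations -0.155 to 0.0125), and between genotypes it was 0.0825 to 0.26 in basal medium and 0.039 to 0.124 in EBSS, against -0.212 to 0.106 and -0.111 to -0.012 for different numbers. Not every same-numbered pair exceeded 0.1 and the labels give the numbers no meaning, so pairing is only a hint from the data and the fit without the block was kept. With the replicate block 22 genes were called higher and 3 lower after EBSS in Vps15KO, 26 and 4 in WT, 29 and 1 between genotypes in EBSS and 31 and 1 in basal medium, and 2 and 3 in the difference. Rrn3 in EBSS was the one call among the 38 that it ended.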
